A study of Mus musculus with 6 samples.

Results

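The cells that floated above cultures of fetal mouse lung were sampled on days 4, 5 and 6, giving 3 suspension libraries of the 6 libraries in the study. They were chosen by the label that names them suspension cells, and were compared with each other across all genes. The lungs came from wild-type C57BL6 fetuses at embryonic day 17, were dissociated with liberase, frozen in DMSO, and plated on a thin Matrigel coat in blood progenitor medium with mTPO, IL6, SCF, FGF, VEGF and Flt3. Wells were washed with PBS on day 3. Whether any floating cells from plating remained after that was not tested. The other 3 libraries were made on the same days from the attached layer, which was released with accutase and then enriched by sorting for live cells with VE-cadherin (VECAD+), the junction protein of endothelium. All 6 libraries share strain, tissue, medium and coating, and no group is a mutant. There is 1 library per fraction and day, and nothing in the labels tells if each day was a separate culture or if fetuses were pooled. P-values below therefore measure only the spread of these libraries around a straight line, which may be technical.

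Neutrophils ripen through stages that fill different granules in order. Promyelocytes make primary granule proteases and myeloperoxidase, myelocytes and metamyelocytes make secondary granule proteins such as lactoferrin, and late cells make gelatinase and the surface receptors that guide them into tissue. The calcium-binding proteins S100a8 and S100a9 accumulate in the cytosol along the way. C/EBP proteins, among them C/EBP epsilon, and PU.1 are the transcription factors known for driving these genes. Attached lung cells, in contrast, are marked by collagens and matrix proteins (fibroblasts), contractile proteins (smooth muscle and pericytes), keratins and surfactant proteins (epithelium), and VE-cadherin (endothelium).

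Levels are CPM, the reads on the sense strand of a gene scaled to 1 common library size, with TMM factors over the 6 libraries. The suspension libraries held 43805361, 44199524 and 57784974 gene reads on days 4, 5 and 6, and 3 reads corresponded to 0.0726, 0.0715 and 0.0594 CPM. The libraries were made for single cells, but the tables give totals per library with no cell axis. Fewer cells of a type and less RNA per cell therefore cannot be told apart, and reads are not single molecules. The label was checked against marker genes. Ptprc, the pan-leukocyte phosphatase CD45, stood at 166, 199 and 249 CPM in suspension and at 12.5, 20.1 and 38.4 CPM in the attached fraction. Cdh5, which encodes VE-cadherin, stood at 0.169, 0.381 and 0.119 CPM in suspension and at 141, 226 and 78.9 CPM in the attached fraction.

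Genes were sorted by size of change, without a test. Among 9274 tested genes with a mean of at least 5 CPM in suspension, a gene was placed in the gained class if day 6 was at least 2-fold above day 4 with day 5 between, and in the lost class for the reverse. A steady gene had a highest day no more than 1.2-fold above its lowest. The gained class held 140 genes (1.51%), the lost class 113 (1.22%) and the steady class 5296 (57.1%). With the minimum lowered to 1 CPM the gained and lost classes held 257 and 461, and raised to 20 CPM 77 and 25, so which class was larger depended on the minimum. The plot of change against level shows that the gained class reached the most abundant transcripts of the libraries, while the lost class lay at low levels. The median gene of the gained class averaged 22.2 CPM and that of the lost class 9.68 CPM. Together the gained genes took 3.96%, 5.14% and 11.1% of all gene reads on the 3 days, and the lost genes 0.404%, 0.231% and 0.124%. The size rule used suspension levels alone, but the filter on low counts and the TMM factors used all 6 libraries. A gene under the filter's minimum in suspension on day 6 could pass only with reads in the attached fraction. Of the 113 lost genes 88 (77.9%) were higher there than in suspension on average, beside 37.6% of all 9274 genes. How much of that share comes from the filter was not tested. Of the gained genes 129 (92.1%) were higher in suspension, beside 62.4% of all.

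**Figure D1:**
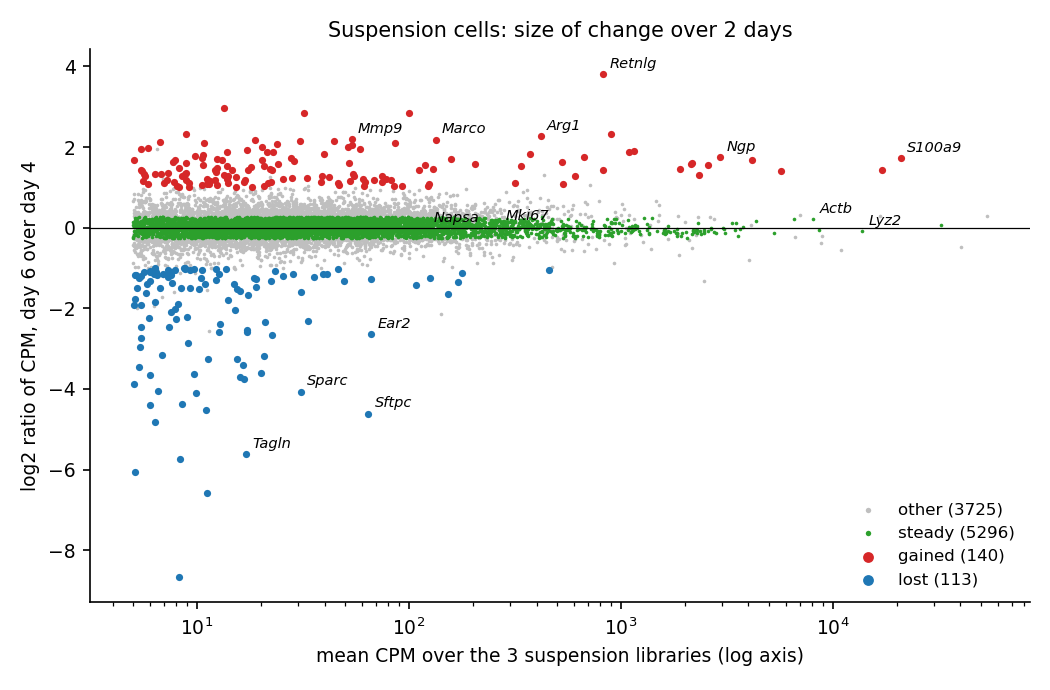
Each point is 1 of 9274 genes. The horizontal log axis gives its mean CPM over the 3 suspension libraries and the vertical axis the log2 ratio of day 6 to day 4. Red points are the 140 gained genes, blue points the 113 lost genes, green points the 5296 steady genes and grey points the rest. S100a9, Ngp and Retnlg sit high among abundant genes, and Sftpc, Sparc and Tagln sit low at under 100 CPM.

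A straight line in log2 level over the days was also tested in each gene (edgeR quasi-likelihood test on all 6 libraries, Benjamini-Hochberg). The slope in suspension was positive for 14 of 14912 tested genes (0.0939%) and negative for 60 (0.402%) at an adjusted p under 0.05. At an unadjusted p under 0.05 the counts were 995 and 1462. The DESeq2 Wald test called 50 and 323. Every one of the 14 belonged to the gained class, but slope and class rest on the same suspension reads, so this overlap is no separate support. Of the 60, 16 belonged to the lost class and the other 44 averaged under 5 CPM, and all 60 were higher in the attached fraction. For genes under the filter's minimum in suspension on day 6, reads in the attached fraction were a condition of being tested. Their higher level there is thus partly fixed by the filter. With either the day 4 or the day 6 suspension library left out, no gene passed in either direction (edgeR, unadjusted 221 or 165 higher and 898 or 548 lower). Such a fit keeps only adjacent suspension days and has fewer residual degrees of freedom than the main fit. The loss of calls therefore cannot show which library the counts rest on. Without the suspension library of day 5 there were 8 higher and 97 lower. Without the attached library of day 4, 5 or 6 there were 168, 176 or 172 higher and 342, 368 or 371 lower.

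Differences of at least 2-fold were fewer between days 4 and 5 than between days 5 and 6. From day 4 to day 5, 15 genes were at least 2-fold higher and 45 at least 2-fold lower, and from day 5 to day 6 the counts were 76 and 76. The typical gene differed about equally in each step, with a median absolute log2 ratio of 0.13 and then 0.12. In the gained class 105 of 140 genes (75.0%) took the larger step between days 5 and 6, with median log2 steps of 0.47 and then 0.91. In the lost class 73 of 113 (64.6%) did so, with median log2 steps of -0.66 and then -0.92.

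Promoters of gained genes named by the naming rule were searched for letters that C/EBP and PU.1 are known to prefer, and the stretches with C/EBP letters are shown because these factors are the textbook regulators of the genes that lead the gain. The motifs were TTGCNNAA for C/EBP and GAGGAAG for PU.1, sought on both strands in the 250 bases before each RefSeq start (GRCm38.p6, the assembly of mm10). Of 21 named gained genes 15 matched the promoter table, and 5 of these (33.3%) held a C/EBP match and 5 (33.3%) a PU.1 match. Among all 27025 genes with a promoter the shares were 10.8% and 12%. Over the whole gained class 22 of 99 genes with a promoter (22.2%) held a C/EBP match and 21 (21.2%) a PU.1 match, beside 8.96% and 13.4% of the 7447 genes with a promoter among those at 5 CPM or more. In the lost class the shares of 79 genes were 8.86% and 19.0%. A match is a description of letters and not a bound site. The 5 stretches run 5′ to 3′ on the gene's strand from 250 bases before the RefSeq start to the last base before the annotated gene (GENCODE M21 or RefSeq, whichever begins first), with matches in capitals. They lie at chr9:110419558-110419746 (Ngp, + strand), chr9:111019042-111019270 (Ltf, + strand), chr3:90695722-90695971 (S100a9, - strand), chr15:75155011-75155239 (Ly6g, + strand) and chr16:48872358-48872607 (Retnlg, + strand).
Ngp: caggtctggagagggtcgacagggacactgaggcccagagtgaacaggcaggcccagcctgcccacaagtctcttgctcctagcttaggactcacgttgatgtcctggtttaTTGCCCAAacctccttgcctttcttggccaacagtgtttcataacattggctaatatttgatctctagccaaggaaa
Ltf: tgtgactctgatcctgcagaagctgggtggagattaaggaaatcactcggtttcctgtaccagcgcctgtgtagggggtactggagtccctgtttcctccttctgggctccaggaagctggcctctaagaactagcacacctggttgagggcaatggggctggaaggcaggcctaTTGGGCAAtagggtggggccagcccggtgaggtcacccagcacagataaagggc
S100a9: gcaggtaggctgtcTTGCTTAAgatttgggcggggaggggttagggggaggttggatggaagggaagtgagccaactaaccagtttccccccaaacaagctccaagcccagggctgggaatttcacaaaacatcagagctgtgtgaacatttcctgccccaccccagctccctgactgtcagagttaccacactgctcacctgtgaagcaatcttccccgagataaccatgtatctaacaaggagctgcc
Ly6g: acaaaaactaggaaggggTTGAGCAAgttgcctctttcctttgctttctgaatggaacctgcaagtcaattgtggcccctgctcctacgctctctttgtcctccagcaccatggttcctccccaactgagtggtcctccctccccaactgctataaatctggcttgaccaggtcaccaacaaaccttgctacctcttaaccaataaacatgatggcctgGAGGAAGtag
Retnlg: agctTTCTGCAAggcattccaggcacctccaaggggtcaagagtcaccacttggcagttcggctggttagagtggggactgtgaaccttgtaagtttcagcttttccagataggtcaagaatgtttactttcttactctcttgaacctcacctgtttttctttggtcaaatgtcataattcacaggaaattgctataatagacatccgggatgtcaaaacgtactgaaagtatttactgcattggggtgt
The capitals in Ngp, Ltf, S100a9 and Retnlg are C/EBP letters that begin 138, 75, 236 and 246 bases before the RefSeq start. A second C/EBP match of Ngp, 11 bases before that start, falls inside the GENCODE gene and is not shown. In Ly6g the first capitals are C/EBP letters, 232 bases before the start, and the second are PU.1 letters, 31 bases before it. No C/EBP or PU.1 letters were found in this window for Camp, Chil1, Chil3, Cxcr2, Asprv1 or Stfa2, all of which were gained.

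Transcripts of maturing neutrophils held most of the reads that the gained class added, and those of their earliest granules were not in that class. Of 8 primary granule genes none was gained, of 10 secondary granule genes 8 were, of 11 late granule and membrane genes at 5 CPM or more 7 were, and of 10 cytosol genes 8 were. The background share of gained genes was the 1.51% given above. The lists were chosen with earlier results of these data known, so their shares are a description and not independent support. The cytosol list also holds several stefin A genes, near-identical copies that are not separate observations. Median log2 ratios of day 6 to day 4 over the tested members were -0.55, 1.47, 1.62 and 1.55, beside -0.02 over all tested genes. Under plain library totals they were -0.66, 1.36, 1.51 and 1.45, with the same counts of gained genes. In the plot of neutrophil genes by granule class, the primary granule lines peak at day 5 or drift down while most lines of the other panels end above 0.

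**Figure D2:**
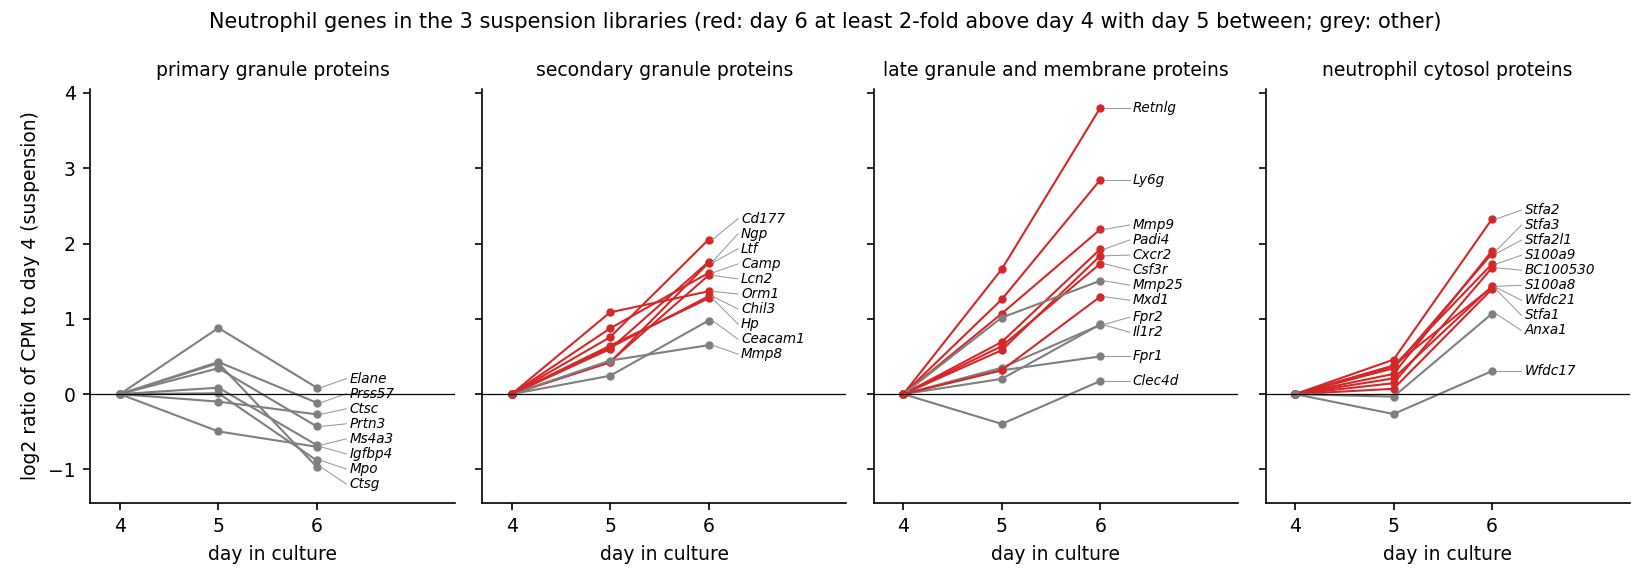
Lines give the log2 ratio of CPM to day 4 in the suspension libraries on days 4, 5 and 6, with 1 line per tested gene and 1 panel per list. Red lines are genes at least 2-fold higher on day 6 with day 5 between. Retnlg ends highest, at a log2 ratio of 3.80, and no primary granule gene is red.

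Primary granule genes encode the proteases and peroxidase of early neutrophil precursors. Mpo, myeloperoxidase, stood at 293, 296 and 159 CPM on days 4, 5 and 6. Elane, neutrophil elastase, stood at 251, 462 and 267 CPM. Prtn3, proteinase 3, stood at 1038, 1317 and 771 CPM. Day 5 was the highest day for each of these genes, as it was for 6 of the 8 members. Ctsg, cathepsin G, stood at 500, 665 and 256 CPM, and Ctsc, the peptidase that activates these proteases, at 557, 520 and 462 CPM. Day 6 was the lowest day for 7 of the 8 members. The list took 0.278%, 0.340% and 0.185% of gene reads. EdgeR called none of the 8 (unadjusted, 0 higher and 1 lower, and 0 by DESeq2).

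Secondary granule genes were highest on day 6 in all 10 members. Ngp, neutrophilic granule protein, stood at 1500, 2272 and 5070 CPM, and its slope was 0.88 ± 0.09 log2 units per day (SE, 6 libraries, edgeR adjusted p = 0.0391). Hp, haptoglobin, stood at 365, 570 and 881 CPM with a slope of 0.64 ± 0.06 (edgeR adjusted p = 0.0379). Those were the 2 members of 10 whose rise passed the test, beside the background of 0.0939%. Ltf, lactoferrin, which binds iron, stood at 355, 476 and 1190 CPM, 3.35-fold higher on day 6 (edgeR adjusted p = 0.215). Camp, the cathelicidin precursor, stood at 1101, 2017 and 3359 CPM (edgeR adjusted p = 0.193). Lcn2, a siderophore-binding lipocalin, stood at 1201, 1618 and 3583 CPM (edgeR adjusted p = 0.0622), and Chil3, a chitinase-like protein, at 1404, 2153 and 3456 CPM. Each of these was higher on each later day. Mmp8, neutrophil collagenase, differed least of the abundant members, with 599, 815 and 940 CPM. The list as a whole took 0.620%, 0.949% and 1.63% of gene reads.

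Late granule and membrane genes held the 2 largest ratios among gained genes of at least 20 CPM, those of Retnlg and Ly6g. Retnlg, a resistin-like protein of mature mouse neutrophils, stood at 137, 433 and 1909 CPM, 14.0-fold higher on day 6 than on day 4 (slope 1.90 ± 0.35, edgeR adjusted p = 0.101). Ly6g, the surface antigen used to stain mouse neutrophils, stood at 9.03, 21.6 and 64.9 CPM, 7.19-fold higher on day 6 (edgeR adjusted p = 0.148). Mmp9, gelatinase B, stood at 21.1, 44.3 and 96.0 CPM, and its rise of 1.09 ± 0.09 log2 units per day was the only one of 12 tested members past the threshold (edgeR adjusted p = 0.0315). In these 3 genes each step was more than 2-fold upward. Cxcr2, the chemokine receptor that draws neutrophils out of marrow, stood at 19.6, 29.4 and 70.1 CPM. Csf3r, the receptor for G-CSF, stood at 14.2, 22.1 and 47.2 CPM. Padi4, which citrullinates histones, stood at 8.08, 13.1 and 30.7 CPM. Formyl peptide receptors, which sense bacterial peptides, differed less, with Fpr1 at 35.2, 43.9 and 49.9 CPM and Fpr2 at 21.1, 24.3 and 40.0 CPM. Clec4d, a C-type lectin also made by monocytes and macrophages, was lowest on day 5, at 210, 160 and 237 CPM.

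Cytosol genes held most of the added reads. S100a9 (chr3:90692632-90695721) stood at 11238, 14527 and 37198 CPM, and its partner S100a8 (chr3:90668978-90670035) at 10541, 12186 and 28429 CPM. Both genes moved little from day 4 to day 5 and more than 2-fold from day 5 to day 6. The pair took 2.05%, 2.54% and 5.74% of gene reads. The stefin A genes, inhibitors of cysteine proteases, behaved alike, with Stfa1 at 3667, 3851 and 9636 CPM and Stfa2 at 365, 501 and 1828 CPM. Stefin A genes are near-identical copies, so the split of reads among them is uncertain. Anxa1, annexin A1, was 2.10-fold higher on day 6 but lowest on day 5, at 525, 513 and 1101 CPM, and so fell outside the gained class. EdgeR called none of the 10 members (unadjusted, 8 higher and 0 lower, and 0 by DESeq2).

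The transcription factors of the lineage differed less between days than its secondary and late granule products. Of 9 tested, 1 was gained and 2 were steady. Cebpe, which encodes the C/EBP protein of the secondary granule stage, stood at 85.2, 107 and 180 CPM, 2.11-fold higher on day 6, and no longer reached 2-fold under plain library totals. Gfi1, a repressor needed for granulocyte fate, stood at 10.1, 10.4 and 7.74 CPM. Cebpa, which acts early in the lineage, stood at 72.1, 60.9 and 53.8 CPM, and Cebpb at 971, 924 and 844 CPM. Spi1, which encodes PU.1, was steady at 394, 413 and 471 CPM, and Runx1 stood at 113, 115 and 94.9 CPM. EdgeR called none of the 9 (unadjusted, 1 higher and 0 lower, and 1 higher by DESeq2). The 6 subunits of the phagocyte oxidase were all highest on day 6, with a median log2 ratio of 0.45 and none gained. Cybb, its catalytic subunit, stood at 425, 550 and 621 CPM, and the p47 subunit Ncf1 at 179, 225 and 276 CPM (edgeR called 0 of the 6, unadjusted 3 higher and 0 lower, and 0 by DESeq2).

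The neutrophil lists account for 24 of the 140 gained genes, and 105 gained genes stood in no list. By the naming rule, the largest log2 ratios among gained genes of at least 20 CPM were those of Retnlg, Ly6g, Asprv1, Stfa2, Arg1, Mmp9, Marco, Chil1, Olfm4 and Slc2a3. Asprv1, an aspartic protease, stood at 29.8, 57.1 and 212 CPM. Olfm4, an olfactomedin stored in granules of a subset of neutrophils, stood at 10.5, 35.4 and 46.3 CPM, with most of its step before day 5. Chil1, another chitinase-like protein, rose from 18.6 through 31.2 to 83.4 CPM (slope 1.08 ± 0.10, edgeR adjusted p = 0.0379). Slc2a3, the glucose transporter GLUT3, stood at 10.1, 18.8 and 42.6 CPM, whereas Slc2a1 (GLUT1) was steady at 25.1, 24.0 and 25.6 CPM.

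Some gained genes are known from macrophages rather than neutrophils. Arg1, arginase, which macrophages make under type 2 signals, stood at 152, 366 and 736 CPM in suspension and at 34.2, 264 and 516 CPM in the attached fraction. Marco, a scavenger receptor of alveolar macrophages, stood at 53.8, 103 and 244 CPM, and at 5.21, 12 and 93.6 CPM in the attached fraction. Slc40a1, the iron exporter ferroportin, rose from 26.4 through 48.7 to 80.9 CPM (slope 0.81 ± 0.06, edgeR adjusted p = 0.0291). Cd163, the scavenger receptor for haptoglobin bound to haemoglobin, stood at 10.5, 14.1 and 21.1 CPM, which was 2.0-fold and under 2-fold with plain library totals. All 4 were thus higher on each later day in suspension. The other genes whose rise passed the slope test were Slpi (a secretory protease inhibitor, 62.2, 105 and 168 CPM), Ednrb (an endothelin receptor, 112, 173 and 333 CPM), Slfn4 (3.68, 7.62 and 28.8 CPM), F630028O10Rik (35.0, 74.1 and 149 CPM), Cpne2, Frmd4b, Gas7, Tmcc1 and Zmpste24. Of the 14, Cpne2 was the only one with the higher mean in the attached fraction.

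Transcripts of attached lung cells were lower in suspension on day 6 than on day 4. A set of 354 genes was chosen by level alone, as those with a mean of at least 20 CPM in the attached fraction and at least 16 times the mean in suspension. Their low level in suspension is thus fixed by the choice, which did not use the order of the days. They took 0.173%, 0.130% and 0.0402% of suspension reads on days 4, 5 and 6, and 4.31%, 4.87% and 4.50% of attached reads. Of the 354 genes 340 were lower on day 6 than on day 4, with a median log2 ratio of -2.01, and 29 had a slope past the threshold, all downward, beside the background of 0.402%. Members under the filter's minimum in suspension on day 6 were tested only through their attached reads. That excess over the background is thus partly fixed by filter and choice, and is no separate support. The share in the attached fraction was thus about level, while that in suspension was lower on each later day.

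**Figure D3:**
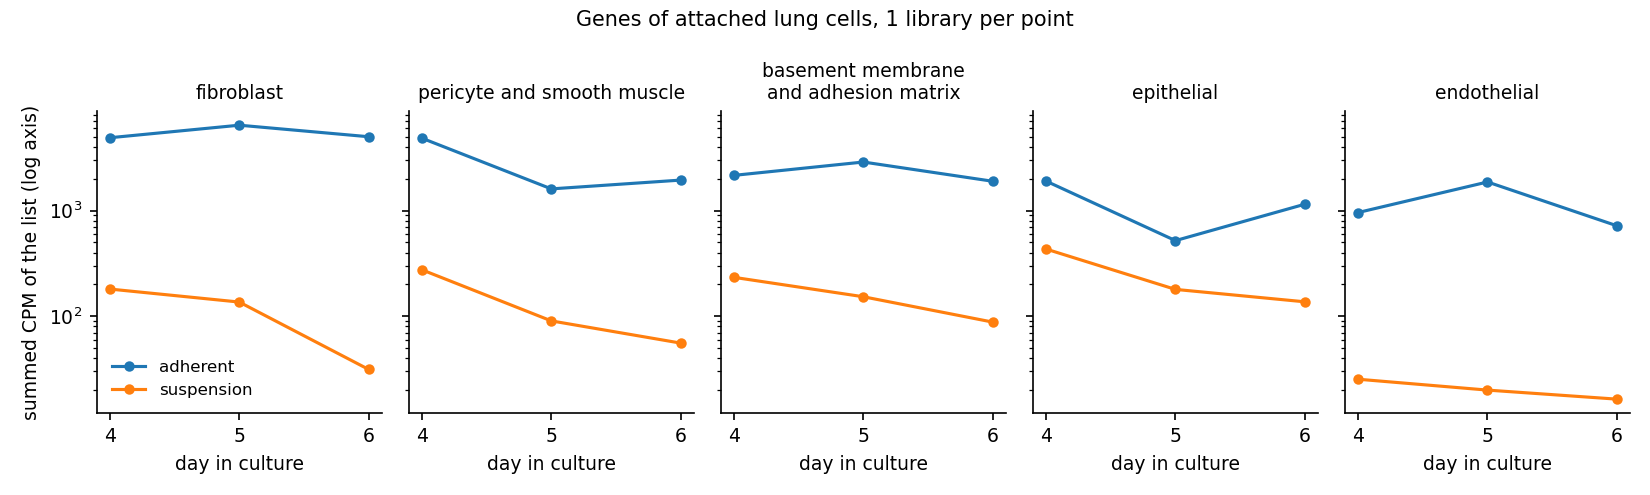
Points give the summed CPM of a list (log axis) on days 4, 5 and 6, with 1 library per point, in the attached fraction (blue) and in suspension (orange). The orange line descends in every panel. The blue line of the fibroblast list stands at 4902, 6442 and 5010 CPM, highest on day 5, while for the epithelial and the pericyte and smooth muscle lists it is lower on day 5 than on day 4 as well.

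Fibroblast genes were lower on day 6 than on day 4 in 16 of 17 tested members, with a median log2 ratio of -2.23. Of the 8 members at 5 CPM or more 7 were lost. Sparc, a matrix glycoprotein that binds collagen, stood at 56.3, 33.1 and 3.36 CPM in suspension and at 2207, 2741 and 1428 CPM in the attached fraction. Col1a2, a chain of type I collagen, stood at 26.1, 21.1 and 4.49 CPM, and its partner Col1a1 at 19.3, 15.6 and 3.68 CPM. Col3a1, of type III collagen, was highest on day 5, at 12.4, 16.8 and 6.16 CPM. In each of these 4 genes the larger step lay between days 5 and 6. The list's summed level in suspension was 181, 136 and 31.3 CPM. EdgeR called no slope in it (unadjusted, 0 higher and 11 lower, and 4 lower by DESeq2). It called no difference from the attached slope either (unadjusted, 12 lower in suspension, and 6 by DESeq2).

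Smooth muscle and pericyte genes were lower on day 6 in all 11 tested members, with a median log2 ratio of -3.17, and all 5 members at 5 CPM or more were lost. Acta2, smooth muscle actin, stood at 49.9, 6.60 and 5.54 CPM. Tagln, transgelin, stood at 44.6, 5.60 and 0.91 CPM. Both made their larger step before day 5, and the same step is seen in the attached fraction, where Acta2 stood at 1400, 235 and 383 CPM. Tpm2, beta-tropomyosin, fell from 43.8 through 13.1 to 3.62 CPM (slope -1.80 ± 0.10, edgeR adjusted p = 0.0188). Des, desmin, the muscle intermediate filament, fell from 21.7 through 5.74 to 1.74 CPM (edgeR adjusted p = 0.0385). Tpm2 fell more steeply than in the attached fraction, where it stood at 608, 332 and 259 CPM, by 1.18 log2 units per day (edgeR adjusted p = 0.0485). No other member had a called difference.

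Epithelial genes had the deepest median log2 ratio among the lists, -4.49 over 18 tested members, all lower on day 6. Of the 5 members at 5 CPM or more 4 were lost and 1 was steady. The other members averaged under 5 CPM, so their ratios rest on few reads on day 6. The ranking covers tested members only, and the eosinophil list kept just 3 of its 9 genes. Keratins and claudins, which build the filaments and tight junctions of epithelium, held all the slope calls in the list. Krt18 fell from 27.2 through 4.76 to 1.19 CPM (slope -2.29 ± 0.11, edgeR adjusted p = 0.0188), Krt8 from 12.1 through 2.45 to 0.34 CPM, and Krt19 from 11.4 through 2.95 to 0.77 CPM. With Krt7, Cldn4 and Cldn7, 6 of 18 members passed the slope test downward, beside 0.402% of all genes. Members under the filter's minimum in suspension on day 6 could be tested only through reads in the attached fraction. The share of calls is thus partly fixed by the filter and is no separate support. Sftpc, surfactant protein C of type 2 cells, stood at 166, 19.6 and 6.81 CPM, 24.4-fold lower on day 6, and at 765, 120 and 773 CPM in the attached fraction (edgeR adjusted p = 0.186 for its slope in suspension). Sftpb, surfactant protein B, stood at 30.5, 2.48 and 0.317 CPM. Sftpc and Sftpb took the larger step before day 5, and Krt8 after it. Napsa, the protease that processes surfactant protein B, stood apart at 121, 125 and 120 CPM in suspension and 14.9, 14.5 and 21.4 CPM in the attached fraction. Napsa made up most of the list's sum in suspension on days 5 and 6, and the other 17 members together stood at 311, 54.0 and 16.7 CPM. Their sum in the attached fraction was 1887, 505 and 1128 CPM. EdgeR called no difference between the 2 fractions' slopes in this list (unadjusted, 13 lower in suspension, and 6 by DESeq2).

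Matrix and vessel genes completed the picture. Among the 10 basement membrane and adhesion genes, Fn1, fibronectin, which macrophages also make, stood at 165, 98.5 and 62.0 CPM. Lamc1, a laminin chain, was steady at 19.9, 18.9 and 17 CPM. The other 8 members summed to 47.9, 35.3 and 8.85 CPM. Lama5, another laminin chain, fell from 5.03 through 0.667 to 0.218 CPM and was the only member past the slope threshold (edgeR adjusted p = 0.0315). Of the 12 endothelial genes 8 stayed under 1 CPM in every suspension library, and the list had a sum of 25.3, 19.9 and 16.4 CPM against 959, 1867 and 719 CPM in the attached fraction. Most of that sum came from Egfl7, Pecam1, Kdr and Eng, while Cldn5, Tek and Tie1 were listed at 0 on day 6. EdgeR called none of the 12 (unadjusted, 0 in either direction, and 0 by DESeq2).

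Not every loss was of an attached-cell gene. By the naming rule the largest losses at 20 CPM or more were those of Sftpc, Sparc, Tpm2, Acta2, Hmga2, Ear2, Timp1, Cald1, Rgcc and Fosb. Timp1, a metalloprotease inhibitor, and Cald1, caldesmon, fell with slopes of -1.17 ± 0.12 and -1.16 ± 0.09 (edgeR adjusted p = 0.0385 and 0.0291). Both were far higher in the attached fraction. Hmga2, a chromatin protein of fetal and growing cells, stood at 37.6, 24.4 and 5.96 CPM, and at 517, 406 and 124 CPM in the attached fraction. Ear2, a ribonuclease of eosinophils and lung macrophages, stood at 120, 61.0 and 19.2 CPM, against 1.89, 3.68 and 1.72 CPM in the attached fraction. Rgcc, a regulator of the cell cycle, stood at 219, 171 and 69.9 CPM, and was also higher in suspension. Plet1, known from alveolar macrophages, stood at 219, 209 and 85.6 CPM, and Mmp12, macrophage elastase, at 12.2, 6.98 and 1.37 CPM. Ear2, Rgcc, Plet1 and Mmp12 were therefore lost without being genes of the attached fraction.

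Macrophage transcripts were mixed. Of 18 macrophage genes 9 were higher and 9 lower on day 6 than on day 4. None was gained, none lost and 7 were steady, a smaller share than the 57.1% of all genes, and the median log2 ratio of day 6 to day 4 was 0.00 (-0.11 under plain library totals). Lyz2, lysozyme, stood at 14355, 13208 and 13589 CPM. Cd68, an endosomal glycoprotein, stood at 1045, 883 and 967 CPM, and Mrc1, the mannose receptor, at 556, 609 and 862 CPM. The complement gene C1qb was highest on day 6, at 1333, 1233 and 1972 CPM, and the cathepsin gene Ctss was lowest then, at 2400.1, 1743 and 1490 CPM. The list's sum was 43405, 39148 and 40915 CPM in suspension, and 7962, 10200 and 18008 CPM in the attached fraction. EdgeR called no slope in suspension (unadjusted, 0 higher and 2 lower, and 0 by DESeq2) and no difference between the 2 fractions' slopes (unadjusted, 12 lower in suspension, and 9 by DESeq2). Among 10 genes for lipid handling, Spp1, osteopontin, stood at 13141, 10606 and 9013 CPM, and 9 of the 10 were lower on day 6 than on day 4, with a median log2 ratio of -0.32. Alveolar macrophage genes leaned the same way, with 8 of 10 tested members lower on day 6 and a median log2 ratio of -0.71 (-0.82 under plain library totals). Of the 9 at 5 CPM or more, Ear2 and Plet1 were lost, Marco was gained, and 2 were steady, among them Fabp5, a fatty acid carrier, at 8915, 8280 and 8616 CPM. None of the 10 was called by edgeR (unadjusted, 1 higher and 3 lower, and 1 higher and 1 lower by DESeq2).

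The steady class was broad, with 5139 of its 5296 genes in no list. Among genes of general cell function, 11 of 15 housekeeping genes were steady, and 8 under plain library totals. Actb stood at 7752, 7517 and 9010 CPM and Gapdh at 947, 904 and 834 CPM. Of 81 ribosomal protein genes at 5 CPM or more 76 were steady, and 58 under plain library totals, which lower the day 6 ratio of every gene by about 0.11 log2 units. All 8 mitochondrially encoded genes at 5 CPM or more were steady, as were 8 of 12 glycolysis genes and 7 of 14 lysosomal genes. The background share of steady genes was 57.1%, and the glycolysis and lysosomal counts lay near it.

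Proliferation genes differed little between days in suspension, with median log2 ratios of day 6 to day 4 of -0.02 in S phase genes and -0.26 in G2 and M phase genes. Of 15 S phase genes 11 were steady, beside the 57.1% of all genes, among them Rrm1, the large subunit of ribonucleotide reductase, at 111, 111 and 111 CPM. Of 15 G2 and M phase genes 7 were steady, a smaller share than that background, and 11 were lower on day 6 than on day 4. Not among those 11 were Mki67, at 261, 271 and 266 CPM, and Top2a, topoisomerase II alpha, at 267, 287 and 289 CPM. The M phase regulators Ccnb1 and Ube2c were lower after day 4, at 71.5, 59.4 and 55.7 CPM and at 290, 223 and 218 CPM. In the attached fraction the S phase sum went from 718 through 525 to 437 CPM and the G2 and M phase sum from 1473 through 1037 to 758 CPM. EdgeR called no slope difference between the 2 fractions in either list (unadjusted, 11 of 15 and 14 of 15 higher in suspension, and 0 and 3 by DESeq2).

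**Figure D4:**
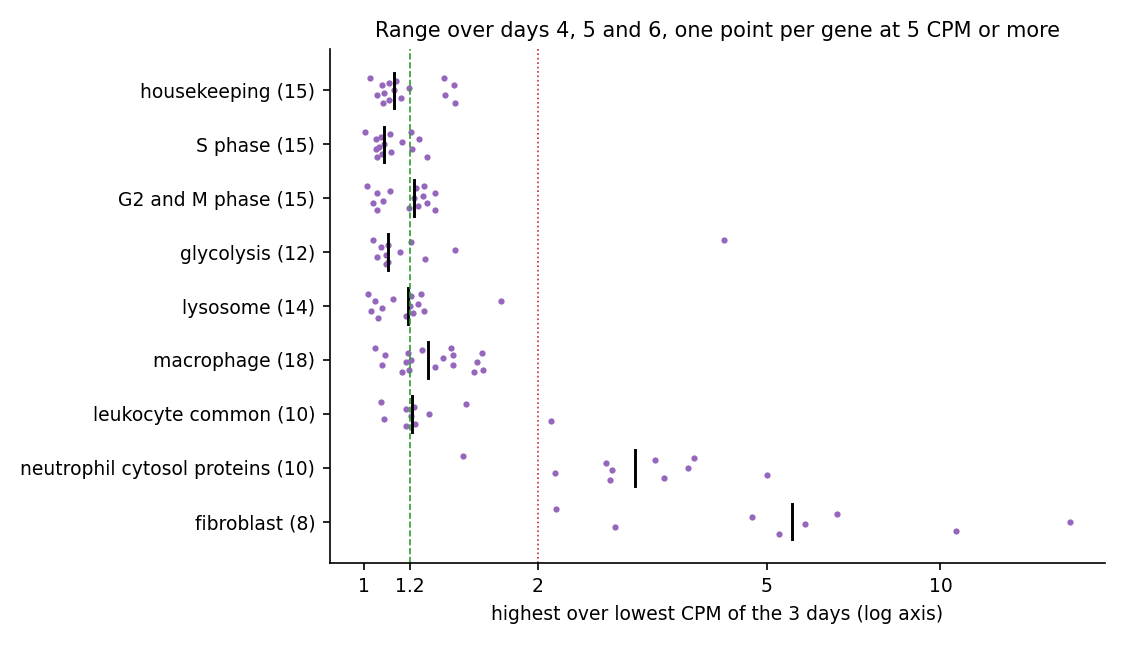
Each point is a gene of a list with at least 5 CPM. The horizontal log axis gives its highest over its lowest CPM of the 3 suspension days, black bars mark list medians, and the dashed and dotted lines mark 1.2-fold and 2-fold. Housekeeping, cell cycle and glycolysis genes lie mostly left of or near the dashed line, and neutrophil cytosol and fibroblast genes lie right of the dotted line with 1 exception.

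Small lineages moved in ways of their own, and 3 libraries cannot tell a single odd library from a course in time. The 4 globin genes dipped on day 5, with a sum of 155, 30.4 and 219 CPM. Hbb-bs, a beta globin, stood at 80.1, 9.43 and 108 CPM. Red cell genes that are not globins were mixed. Epor, the erythropoietin receptor, stood at 6.10, 7.45 and 10.1 CPM and Klf1, the erythroid transcription factor, at 3.41, 4.05 and 9.03 CPM. Others were lowest on day 5, as Tfrc, the transferrin receptor, at 85.1, 76.5 and 116 CPM, and the sparse Alas2 (10, 2 and 32 reads) and Slc4a1 (17, 7 and 63 reads). All 10 tested erythroid genes were higher on day 6 than on day 4, and 3 of them were lowest on day 4. Eosinophil genes were mixed, and the granule transcripts among them were lowest on day 6. Prg2, eosinophil major basic protein, had 678, 129 and 2 reads, and Prg3, its homologue, had 151, 106 and 0 reads. Neither passed the filter on low counts, so neither was tested. The receptor genes Il5ra and Ccr3 were highest on day 6 at few reads, with 7, 5 and 17 reads and with 1, 2 and 9 reads. Mast cell proteases stayed, with Cma1, chymase, at 102, 126 and 131 CPM and Cpa3, carboxypeptidase A3, at 83.2, 120 and 121 CPM. The basophil protease gene Prss34 and the mast cell protease gene Mcpt4 peaked on day 5, at 3.78, 12.5 and 4.65 CPM and at 0.847, 8.15 and 1.5 CPM. EdgeR called none of the 12 mast cell and basophil genes (unadjusted, 0, and 0 by DESeq2) and none of the 10 erythroid genes (unadjusted, 2 higher, and 0 by DESeq2).

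**Figure D5:**
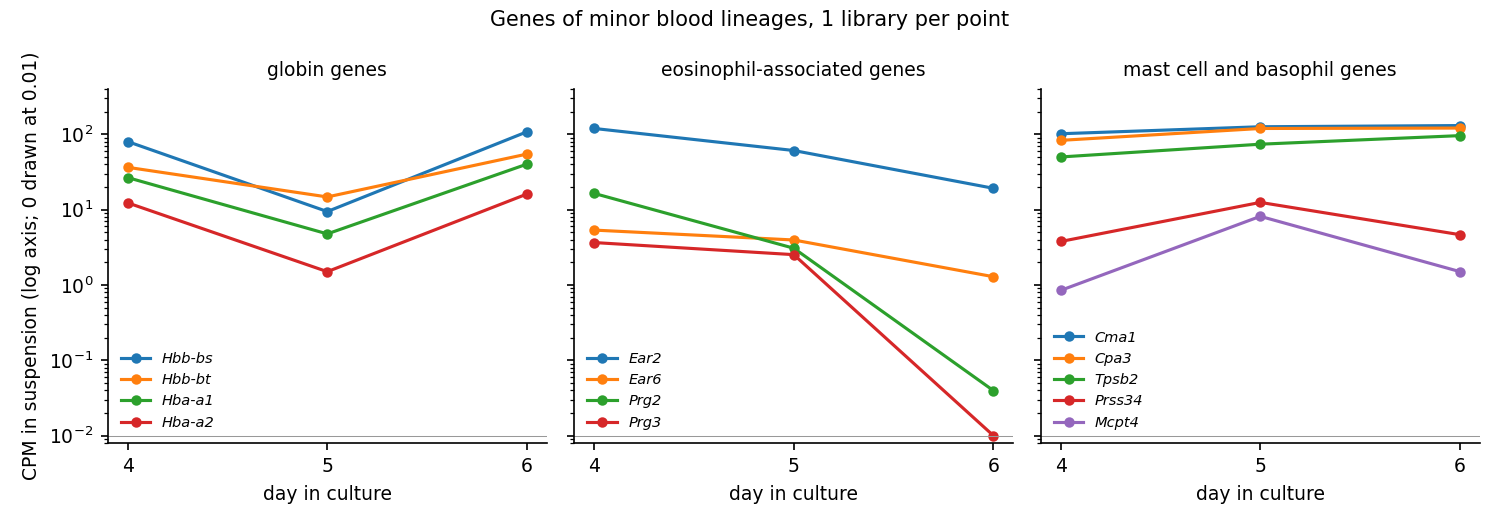
Points give CPM (log axis, with 0 drawn at 0.01) in the suspension libraries on days 4, 5 and 6 for 4 globin genes, 4 eosinophil-associated genes and 5 mast cell and basophil genes. The globin lines are lowest on day 5, the eosinophil lines end lowest on day 6, and Prss34 and Mcpt4 are highest on day 5.

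Monocyte and progenitor genes were mixed. Ly6c2, a surface antigen of inflammatory monocytes also found on immature neutrophils, stood at 85.1, 114 and 277 CPM. Ccr2, the receptor that draws monocytes to tissue, stood at 36.0, 40.3 and 31.1 CPM, and F13a1 at 306, 328 and 478 CPM. Cd34, shared by progenitors and endothelium, was lost at 12.5, 8.0 and 3.11 CPM. Mecom, which encodes EVI1, averaged 2.52 CPM in suspension, under the 5 CPM minimum of the size classes, and was higher in the attached fraction on each day. Which cells its reads came from was not tested. It fell from 6.05 through 1.21 to 0.297 CPM (slope -2.20 ± 0.13, edgeR adjusted p = 0.0204), and its slope differed from that in the attached fraction, where it stood at 19.1, 20.1 and 17.9 CPM (edgeR adjusted p = 0.0485). Kit and Myb, by contrast, stood at 8.21, 10.6 and 13.6 CPM and at 31.2, 33.7 and 24.3 CPM.

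Whether the course over the days differed between floating and attached cells was tested in each gene. The suspension slope was the higher one in 8 of 14912 genes (0.0536%) and the lower one in 69 (0.463%). With the collection day as a block the counts were 124 and 812. Once any 1 of the suspension libraries (day 4, 5 or 6) was left out, no gene passed in either direction (edgeR, unadjusted 289, 614 and 285 higher and 1206, 1855 and 758 lower). Without the attached library of day 4, 5 or 6 there were 18, 148 or 2 higher and 73, 711 or 83 lower. Among genes of at least 20 CPM, Ms4a8a and Il18 were among the lowest p-values for a lower slope, and Gas7, Nudt4 and Glipr2 had the lowest for a higher one. Ms4a8a, a membrane protein of the CD20 family, stood at 151, 151 and 142 CPM in suspension and at 3.14, 10.4 and 41.2 CPM in the attached fraction. Gas7, a cytoskeletal adaptor, stood at 25.3, 40.4 and 60.2 CPM in suspension and at 50.6, 40.9 and 34.1 CPM in the attached fraction, so the 2 fractions ran in opposite directions. None of the neutrophil lists held a difference called by edgeR. For the phagocyte oxidase the unadjusted counts were 0 higher and 6 lower of 6 (4 lower by DESeq2). For the granulocyte transcription factors they were 0 higher and 6 lower of 9 (3 lower by DESeq2). Late granule and membrane genes had 2 higher and 1 lower unadjusted, and cytosol genes 1 higher and 1 lower (0 by DESeq2 in both lists). For primary granule genes edgeR called 0 of 8 (unadjusted, 0 higher and 3 lower, and 2 lower by DESeq2). Their median slope was -0.28 in suspension and 1.73 in the attached fraction, where their sum was 227, 435 and 492 CPM. For secondary granule genes edgeR called 0 of 10 (unadjusted, 4 higher and 2 lower, and 1 higher and 2 lower by DESeq2). Their median slope was 0.73 in suspension and 0.29 in the attached fraction. Their sum in the attached fraction was 188, 335 and 521 CPM beside 6568, 9988 and 18617 CPM in suspension. Members differed in the attached fraction. Hp stood there at 25.9, 56.9 and 139 CPM, Chil3 at 17.3, 30.1 and 109 CPM and Lcn2 at 46.2, 56.9 and 74.3 CPM. Ngp stood there at 25.35, 25.15 and 25.99 CPM, Ltf at 4.73, 8.33 and 3.21 CPM and Camp at 21.54, 35.09 and 17.02 CPM. Before adjustment Ngp, Ltf, Camp and Lcn2 were the 4 with the higher slope in suspension, and Hp and Chil3 the 2 with the lower. With no called difference in any neutrophil list, the neutrophil gain was not shown to be particular to the floating cells.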

How the data were processed

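Reads per gene came from 6 droplet libraries (10x 3' v3, per the labels), 3 of suspension and 3 of attached cells. Per the submitters' processing notes the authors used bcl2fastq, Cell Ranger and STARsolo on mm10. Which versions and which gene annotation were used was not given in the sources used here. Each deposited table gives read counts for 31053 gene identifiers in 3 strand columns, with no cell axis and no correction for molecular identifiers, so droplets without a cell may contribute. The sense column was used. GENCODE M21 named 30934 identifiers, and of several identifiers with 1 symbol the one with most counts kept it. The 4 summary lines of each table stayed out, of which reads outside genes made up 16.7% to 16.8% of suspension reads.

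Totals lay between 36451255 and 57784974 counts. Libraries were scaled by TMM, and filterByExpr with the fractions as groups left 14912 genes (edgeR 4.0.16, limma 3.58.1, R 4.3.3). Slopes per day in each fraction and their difference were tested by edgeR's quasi-likelihood test with 2 residual degrees of freedom, adjusted by Benjamini-Hochberg over all tested genes at 0.05. The ± values are approximate standard errors, the absolute slope divided by the square root of F. Levels under 3 counts were set to 3 counts for ratios. The scripts were tested on simulated data. Named genes were the 10 largest gained and lost genes of at least 20 CPM, the 6 most abundant steady genes, the 2 most abundant members of each of 36 lists, the 3 lowest p-values of each direction of slope difference at 20 CPM or more, and a set list. Not every gene that these rules name is reported here. Other genes in the text are list members or genes past the slope test, chosen after their values were seen. Members and lists were chosen with earlier results of these data known. Both fractions were collected on the same days per the labels, so the day as a block was an alternative. Others were plain library totals, DESeq2 size factors and test (1.42.0), either-strand counts, thinned counts, other filters and thresholds, and leaving out each library.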

Additional observations from a re-analysis of the deposited data

Results flagged for a closer look

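In the 6 genes given here the slope in suspension differed from that in the attached fraction (edgeR quasi-likelihood test of the difference, 6 libraries with 1 per fraction and day, adjusted p = 0.0332 for Ms4a8a and 0.0485 for the others). Differences are suspension minus attached, in log2 units per day. Gas7 differed by 0.91, Glipr2 by 0.90 and Nudt4 by 0.88. Gas7 was higher on each later day in suspension and lower on each later day in the attached fraction. Glipr2 stood at 46.2, 55.9 and 72.1 CPM in suspension and at 88.1, 65.9 and 39.5 CPM in the attached fraction. Nudt4, a phosphatase of inositol pyrophosphates, stood at 70.1, 73.5 and 92.8 CPM and at 298, 194 and 117 CPM. The levels of these 3 genes thus crossed or drew together over the days.

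Ms4a8a differed by -1.91, Il18 by -1.28 and Tpm2 by -1.18. Il18, an inflammasome-processed cytokine, stood at 241, 216 and 185 CPM in suspension and at 10.8, 21.9 and 49.2 CPM in the attached fraction. For Ms4a8a and Il18 the larger change lay in the attached fraction, and for Tpm2 in suspension. Leukocyte genes moved with Ms4a8a and Il18 in the attached fraction only, where the leukocyte list summed to 896, 1426 and 2792 CPM. In suspension that list summed to 8586, 8970 and 10027 CPM, higher on each later day, while Ms4a8a and Il18 were lowest on day 6. The part of leukocyte genes in the result was not tested.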

How the results depend on the processing

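With 1 library per day, slope calls depend on the choice of fit. For the suspension slope the counts were 14 higher and 60 lower. They were 50 and 323 with the DESeq2 test, 204 and 605 without a filter on low counts, and 451 and 450 with the 3 suspension libraries alone (1 residual degree of freedom). With plain library totals 130 were lower. Leaving out 1 library at a time gave 0 to 176 higher and 0 to 371 lower, with 0 where the suspension library of day 4 or day 6 was missing. For the slope difference the counts were 8 higher in suspension and 69 lower. They were 1 and 12 with plain library totals, 34 and 343 with DESeq2, 159 and 847 without a filter, and 124 and 812 with the collection day as a replicate block. Either-strand counts gave 4 higher and a minimum of 10 CPM in 3 libraries gave 15 higher. Leaving out 1 library at a time gave 0 to 148 higher and 0 to 711 lower. The cause was not tested. The 14 and 60 genes were all among those called by DESeq2.

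The gained class held 51 genes at 3-fold, 77 at a mean of at least 20 CPM and 257 at a mean of at least 1 CPM, and the lost class 54, 25 and 461. The steady class held 2232 genes at 1.1-fold. Under plain library totals 115 genes were gained and 130 lost, and not requiring day 5 to lie between gave 147 and 131, an alternative chosen after seeing the data. No named slope changed direction past the threshold under any alternative. Leaving out the day 4 or the day 6 suspension library took 9 named slopes below it, and leaving out day 5 took 3. Levels under 0.0726 CPM correspond to fewer than 3 reads on day 4 and carry no fold.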

Other observations

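Lipid synthesis, antigen presentation and interferon genes are in no comparison above. All 12 genes of cholesterol synthesis and uptake were lower on day 6 than on day 4 in suspension, with a median log2 ratio of -0.46 (-0.56 under plain library totals), and day 6 was the lowest day for all 12. Hmgcs1, which makes the precursor of mevalonate, stood at 222, 219 and 140 CPM, and Cyp51, a sterol demethylase, at 200, 180 and 129 CPM. The list summed to 1217, 1185 and 871 CPM in suspension and to 967, 648 and 459 CPM in the attached fraction. EdgeR called none of the 12 slopes in suspension (unadjusted, 0 higher and 6 lower, and 0 by DESeq2).

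The 7 tested dendritic cell and MHC class II genes were all higher on day 6 than on day 4, with a median log2 ratio of 1.02. Of the 4 at 5 CPM or more, H2-Ab1 and H2-Eb1 were gained. H2-Ab1, a chain that presents peptides to helper T cells, stood at 19.3, 19.9 and 45.3 CPM, the related chain gene H2-Eb1 at 10.8, 12.8 and 30.5 CPM, and Cd74, the invariant chain, at 56.8, 52.2 and 94.1 CPM. All 10 tested interferon response genes were also highest on day 6, with a median log2 ratio of 1.07. Mx1, also on that list but not tested, had 8, 7 and 6 reads. Only 3 of the 10 reached 5 CPM and none was gained, so most of that median rests on few reads. EdgeR called no slope in either list (unadjusted, 1 and 3 higher, and 0 by DESeq2). Among chemokines, Ccl4 stood at 67.9, 91.6 and 198 CPM, Ccl6 was steady at 5881, 6981 and 6827 CPM, and Ccl2 dipped on day 5, at 791, 409 and 775 CPM.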
